A study of Mus musculus with 21 samples.

Results

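Long noncoding RNAs (lncRNAs) are transcripts with no annotated protein product, many of them spliced and polyadenylated like mRNAs. Some act in the nucleus, as Xist does when it coats and silences an X chromosome, some carry small nucleolar RNAs (snoRNAs) in their introns, and some arise from the strand opposite to a coding gene. Oocytes store RNA made during growth, and the embryo clears it while it starts its own transcription, so both kinds of lncRNA can be present around the 2-cell stage. The transcripts described here are those of the merged long-read annotation whose intron chain equals, or is contained in, that of a GENCODE vM21 transcript of a gene typed lincRNA, antisense, processed_transcript, sense_intronic, sense_overlapping or bidirectional_promoter_lncRNA. A single-exon transcript was taken when it lay within an exon of such a transcript. This rule gave 436 of 22612 merged transcripts, from 375 genes, of which 351 matched a whole intron chain, 34 were contained in a longer chain and 51 were single exons within an annotated exon.

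The series covers mouse sperm, oocyte, and 1-cell, 2-cell, 4-cell, 8-cell and blastocyst embryos. Sperm carried the strain label DBA/2J and oocytes C57/BL6J, and embryos were the cross ♂DBA/2J x ♀C57/BL6J; the extraction protocol names the males DBA/2N. Oocytes came from superovulated females of 3 to 5 weeks at 20 h after hCG, the ovulating hormone, and embryos were cultured until 24 to 26 h (1-cell), 46 to 48 h (2-cell), 54 to 58 h (4-cell), 68 to 70 h (8-cell) or 94 to 96 h (blastocyst). Epididymal sperm and oocytes or embryos were pooled, and no treatment or mutant allele was used. Amplified cDNA of each stage gave 2 short-read libraries and 1 long-read pool, so 14 short-read libraries carry the quantities in TPM (a transcript's share of a library's reads, corrected for its length and scaled to a fixed total), and these values hold no read counts. Per the study's methods the 2 short-read libraries of a stage came from separate collections, whose cDNAs were mixed for the long-read pool. The labels do not tie a library to animals, so a p-value measures the spread between these collections. TPM is a share of each library's RNA, so fewer copies of a transcript and more of all other RNA cannot be told apart.

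Markers of sperm, oocyte and blastocyst were highest in the labelled stages. The 6 sperm markers summed to 14026 and 20770 TPM in sperm. A list of 6 blood cell genes (Ptprc, Cd52, Tyrobp, Laptm5, Hba-a1 and Hbb-bs) summed to 6225 and 4983 TPM there. It holds haemoglobin genes too, so its sum does not stand for leukocytes alone. In the same libraries 3 epididymal genes summed to 2039 and 320 TPM. The 2-cell libraries stood apart from each other: 6 oocyte markers summed to 91.4 TPM in replicate 1 and 1098 TPM in replicate 2, and 3 markers of the 2-cell stage to 12.0 and 275 TPM. Replicate 1 was thus no higher in these 3 than 4-cell embryos (12.3 and 16.2 TPM) or 1-cell replicate 2 (16.3 TPM). None of the 6 cumulus and granulosa markers had a merged transcript.

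The most abundant lncRNA of oocyte and 1-cell embryo was C86187, a lincRNA on the minus strand of chromosome 7 (mm10 chr7:46967726-46975911). Its 4 merged transcripts share a first and a last exon and differ only by 2 inner exons, each present or skipped.

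The first sequences shown belong to snoRNA host genes, a group that was low in oocyte and 1-cell embryo and high in sperm and from the 2-cell stage on. Host genes of this kind often start in a short pyrimidine run. A window from 40 bases before to 20 after the RefSeq start (GRCm38.p6) is shown for 5 hosts, picked among windows with such a run. The windows of Snhg1, Snhg15, Snhg20, Zfas1 and another Gas5 start held no run of the length given next. Capitals mark TATAAA, searched on the gene's strand between 40 and 15 bases before the start, and a C followed by at least 4 pyrimidines that begins within 10 bases of the start.
Gas5, plus strand, chr1:161035126-161035185: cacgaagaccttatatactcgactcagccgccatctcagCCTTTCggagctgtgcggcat
Snhg12, plus strand, chr4:132308638-132308697: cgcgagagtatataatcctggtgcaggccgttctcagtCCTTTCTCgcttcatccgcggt
Snhg3, minus strand, chr4:132353667-132353726: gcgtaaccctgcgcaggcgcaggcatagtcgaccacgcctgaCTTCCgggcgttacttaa
Snhg5, minus strand, chr9:88522878-88522937: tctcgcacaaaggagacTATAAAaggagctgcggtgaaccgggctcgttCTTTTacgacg
Snhg8, minus strand, chr3:123508317-123508376: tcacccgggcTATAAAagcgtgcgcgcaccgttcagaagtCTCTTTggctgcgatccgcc

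A run of at least 5 letters was in 8 of 13 host windows (61.5%) and in 10093 of 32851 windows of all RefSeq genes (30.7%). This minimum was chosen after its values were seen: with a minimum of 8 the shares were 23.1% and 8.11%. TATAAA was in 2 host windows (15.4%) against 1.99% of all. Host windows held a median of 29 CG dinucleotides and all windows 7. Over the 228 windows of the 204 member symbols found in RefSeq, 32.9% held the run of at least 5 and 3.95% held TATAAA. A match is a description of these letters and names no bound factor.

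By annotation type the 436 transcripts were 222 lincRNA, 119 antisense, 75 processed_transcript, 17 bidirectional_promoter_lncRNA, 2 sense_overlapping and 1 sense_intronic. They were short and had few exons: the median spliced length was 808 bases (quartiles 565 and 1266) against 1429 (941 and 2002) in the 11088 annotated protein-coding transcripts, and 37.4% had exactly 2 exons against 7.86%. A protein-coding start lay on the opposite strand within 1000 bases of the start of 100 lncRNA transcripts (22.9%) and of 14.2% of protein-coding transcripts. Exons of an annotated coding gene overlapped on the opposite strand in 74 of 436 against 8.46% of coding transcripts. The libraries are not stated to keep strand, so short reads from such overlaps cannot be told apart between a lncRNA and its coding partner. In the 138 transcripts whose ends lie within the annotated sequence, AATAAA or ATTAAA, the usual polyadenylation signals, stood in the last 50 bases of 80 (58.0%), against 70.0% of 5379 coding transcripts. Transcripts of both sets can stop short of the annotated end, as single exons within an annotated exon can. The shares were not compared without these, so no difference in true 3' ends is read from them.

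The ends of 3 transcripts that led a stage or a comparison and hold a signal in the last 60 bases are shown, with it in capitals. The ends of the merged Malat1 and Gm45752 transcripts, which also led, held no signal there. They lay at -6031 and -716 bases from the end of the matched annotated transcript, and those annotated ends were not searched. The end of 1600010M07Rik held AATAAA starting 53 bases from the end and is not shown. In C86187 the capitals start only 8 bases from the end. First is the end shared by the C86187 transcripts, next is that of Hoxd3os1, from the strand opposite to a Hox gene, and last that of Gm12940, which also lies within the annotation of Sfpq, a coding gene for a splicing factor.
C86187, minus strand, chr7:46967726-46967785: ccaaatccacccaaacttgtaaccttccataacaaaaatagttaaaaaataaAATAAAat
Hoxd3os1, minus strand, chr2:74710193-74710252: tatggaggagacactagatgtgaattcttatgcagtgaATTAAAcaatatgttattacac
Gm12940, plus strand, chr4:127036949-127037008: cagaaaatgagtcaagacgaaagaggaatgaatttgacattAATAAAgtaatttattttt

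By the index tau, lncRNA transcripts were more stage-restricted than coding transcripts, but they also had lower levels. Tau is 0 for an even level and 1 for a single stage. Its median was 0.687 in lncRNA transcripts, 0.454 in coding ones and 0.557 over all merged transcripts. It exceeded 0.8 in 24.8%, 10.2% and 14.4% of them. The median of the highest stage mean was 17.7 TPM in lncRNA and 44.1 TPM in coding transcripts. Tau was not compared at matched levels. The highest stage mean lay in sperm for 160 lncRNA transcripts, in oocyte for 51, and in the embryo for 81 (1-cell), 62 (2-cell), 44 (4-cell), 17 (8-cell) and 21 (blastocyst). In shares, 36.7% peaked in sperm and 18.6% at 1-cell, against 22.4% and 9.82% of coding transcripts. Each replicate number alone gave the same peak stage for 208 of the 436 (47.7%), and the 2-cell stage was the peak of 28 in replicate 1 alone and of 135 in replicate 2 alone. A TPM of at least 1 in both libraries was reached by 232 transcripts in 2-cell embryos, the most of any stage, by 230 in sperm, 171 in 8-cell embryos and 142 in blastocyst. It was reached in all 7 stages by 37 transcripts, and in sperm and no other stage by 66. Coding transcripts reached this level most often in 2-cell replicate 2 too, at 90.3% against 80.3% in 2-cell replicate 1. Over transcripts of every kind, that library again had the most detected, 19155. The 2-cell maximum is thus not read as particular to lncRNAs. Counts over both libraries of a stage were not taken for coding transcripts.

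**Figure D1:**
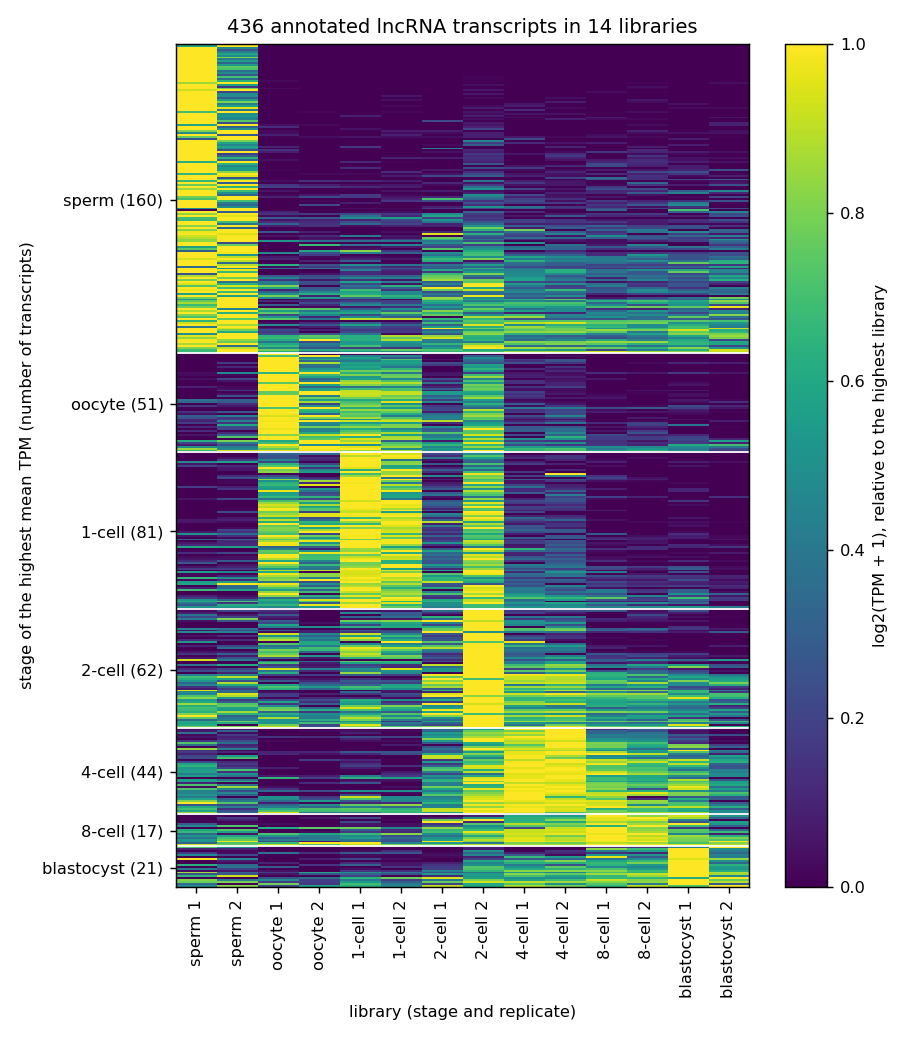
Heat map of 436 lncRNA transcripts (rows, grouped by the stage of their highest mean TPM, with the number in each group) in 14 libraries (columns, stage and replicate number), coloured by log2(TPM + 1) relative to the transcript's highest library. Sperm forms the largest block with 160 transcripts, and 2-cell replicate 2 stays bright across blocks in which 2-cell replicate 1 is dark.

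The mean share of lncRNA transcripts was highest in sperm, oocyte and 1-cell embryo, and in the latter pair much of it was C86187. lncRNA transcripts took 1.41% ± 0.0980 of all TPM in sperm (SD, n = 2), 1.29% ± 0.600 in oocyte and 1.35% ± 0.179 in 1-cell embryos. Later stages had 0.764% ± 0.408 (2-cell), 0.700% ± 0.00818 (4-cell), 0.462% ± 0.105 (8-cell) and 0.387% ± 0.172 (blastocyst). The 2 libraries of a stage could differ widely: oocyte had 0.867% and 1.71%, 2-cell 0.476% and 1.05%, and blastocyst 0.508% and 0.265%. Both libraries of sperm and of 1-cell lay above every library from the 4-cell stage on. C86187 made 31.3% and 70.5% of the lncRNA TPM in oocyte and 53.2% and 56.0% in 1-cell embryos. Without C86187 the lncRNA share was 0.595% and 0.505% in oocyte, 0.691% and 0.538% in 1-cell and 0.692% and 0.704% in 4-cell embryos, so that the order of 1-cell above 4-cell rested on this gene. These shares were not tested.

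**Figure D2:**
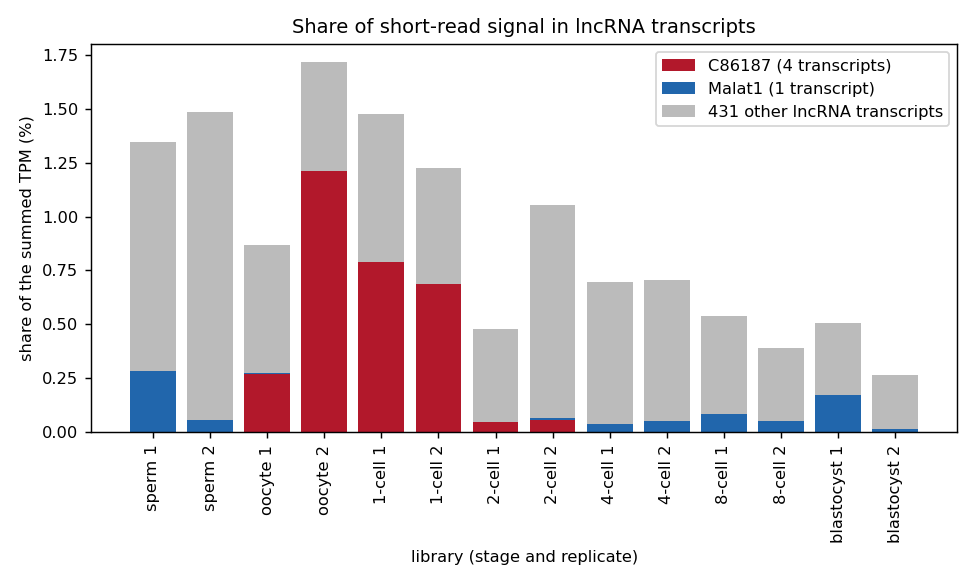
Share of the summed TPM (%) in lncRNA transcripts for each of 14 libraries (stage and replicate number), split into C86187, Malat1 and all other members. C86187 made 0.271% and 1.21% of all TPM in oocyte and 0.787% and 0.686% in 1-cell embryos, and Malat1 is the visible block in sperm replicate 1 and blastocyst replicate 1.

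C86187 led the lncRNA members in oocyte and 1-cell embryo. Its 2-exon form, which skips both inner exons, was at 2401 and 10626 TPM in oocyte, 6995 and 6047 at 1-cell, 383 and 463 at 2-cell, 19.8 and 16.7 at 4-cell, 1.00 and 0.825 at 8-cell, 8.18 and 0.325 in blastocyst and 0.258 and 2.22 in sperm. The groups from oocyte to 1-cell overlapped, and every step from 1-cell to 8-cell separated both libraries. The level fell by 3.95 ± 0.97 (SE) on the log2 scale from 1-cell to 2-cell (adjusted p = 0.0105, limma) and by 4.46 ± 0.97 from 2-cell to 4-cell (adjusted p = 0.038). The 4-exon form was at 140 and 732 TPM in oocyte, 422 and 395 at 1-cell, 37.3 and 53.2 at 2-cell, and 2.75 and 0.312 at 4-cell. The 2-exon form made 87.9% to 88.9% of the gene's TPM in every oocyte and 1-cell library, and 83.9% and 81.6% of it at 2-cell. In the long-read pools all 4 chains were found in oocyte, 3 of them also at 2-cell, and the 2-exon chain alone at 1-cell.

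Other lncRNAs of the oocyte and 1-cell embryo, and a neighbour of some of them, had lower levels. Gm1070 (chr6:71293746-71302879) was at 188 and 1516 TPM in oocyte, 88.6 and 49.2 at 1-cell, and 3.45 and 9.75 at 2-cell. It was already lower at 1-cell than in oocyte in both libraries, but this step did not pass (adjusted p = 0.213), and the fall from 1-cell to 2-cell did (-3.28 ± 0.95, adjusted p = 0.0233). Gm1965, Gm6507 and Gm839 lie next to each other between chr6:89140923 and chr6:89216261 and had different time courses. The Gm1965 transcript with the largest fall was at 54.0 and 47.5 TPM at 1-cell, 5.28 and 48.7 at 2-cell, and listed at 0 in every 4-cell, 8-cell and blastocyst library (2-cell to 4-cell, -4.14 ± 0.84, adjusted p = 0.0307). Gm839 was at 123 and 171 TPM at 1-cell, 39.6 and 151 at 2-cell, and 5.24 and 5.70 at 4-cell (2-cell to 4-cell, -3.60 ± 0.75, adjusted p = 0.0334). Gm6507, in contrast, was at 0.202 and 0.0357 TPM in oocyte, 36.3 and 110 at 2-cell, 30.3 and 36.6 at 4-cell, and 2.57 and 4.20 at 8-cell, with a rise of 5.74 ± 0.68 from 1-cell to 2-cell (adjusted p = 0.000491). The processed transcript E330011O21Rik, at 80.2 and 11.7 TPM at 1-cell in its shorter transcript, was at 0 and 3.12 at 2-cell (-3.98 ± 0.91, adjusted p = 0.00759).

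The transition from oocyte to 1-cell embryo covers fertilization and the hours before major embryonic transcription. Of the 436 lncRNA transcripts, 353 passed the filter for the oocyte to blastocyst fit (TPM of at least 1 in 2 of its 12 libraries). Of these, 6 from 4 genes rose and none fell, while 1.92% of all 20250 merged transcripts tested rose and 0.0840% fell (2.00% in all). Without the adjustment 32 members had p under 0.05. The larger AC158982.1 transcript (chr14:123169167-123176130) was at 2.32 and 0.933 TPM in oocyte, 113 and 98.6 at 1-cell, 5.73 and 14.6 at 2-cell, and 0.803 and 1.02 at 4-cell. It rose by 5.40 ± 0.62 (adjusted p = 0.00875) and then fell by 3.38 ± 0.62 on the log2 scale by the 2-cell stage (adjusted p = 0.00234). The AC166350.2 transcripts (chr17:88661840-88664870) showed the same order, with 17.6 and 25.2 TPM at 1-cell for the first and 14.5 and 29.1 for the second, against at most 1.34 in oocyte. C430002N11Rik was at 1.66 and 1.97 TPM in oocyte, 21.8 and 17.5 at 1-cell, 0.990 and 3.59 at 2-cell, and listed at 0 from the 4-cell stage on. Gm43042, the last of the 4 genes, rose to 8.86 and 10.3 TPM at 1-cell and was at 17.9 and 13.2 at 2-cell. No member was called when oocyte replicate 2 or either 1-cell library was left out, 12 were called without either 2-cell library, and 1 with a pseudocount of 0.1.

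**Figure D3:**
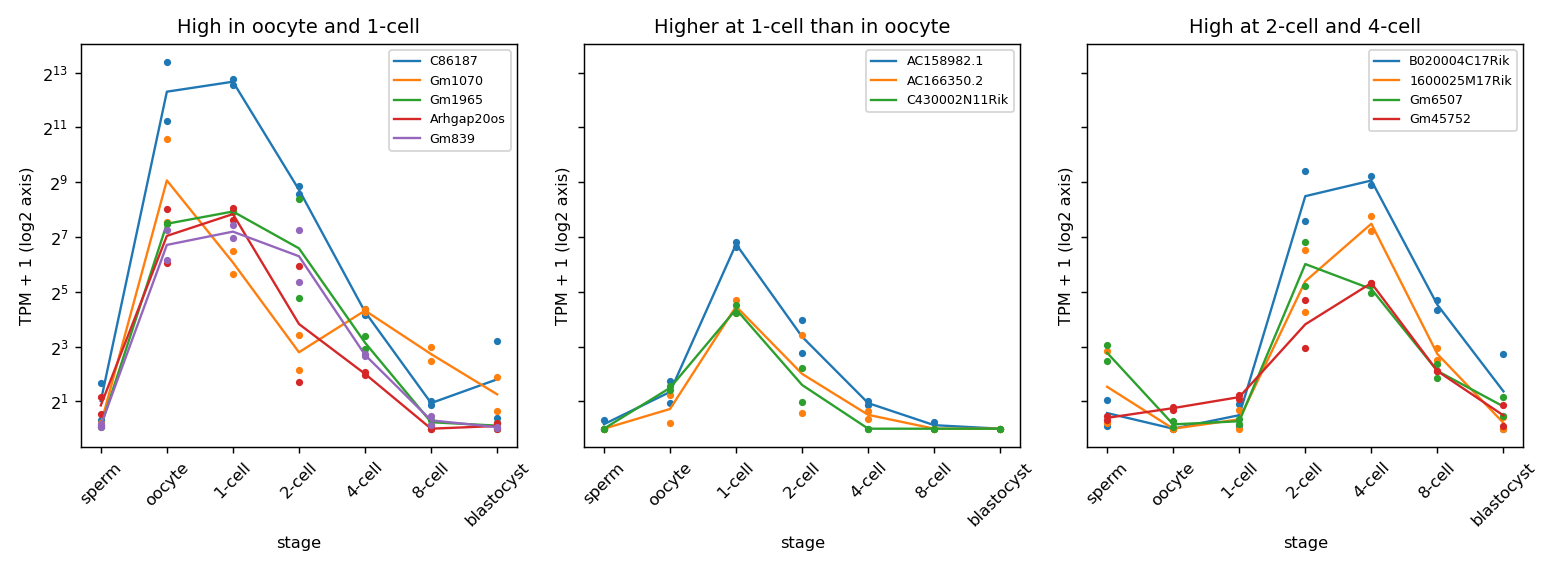
TPM + 1 on a log2 axis for members of 3 time courses across 7 stages; dots are the 2 libraries of a stage and lines join their geometric means, and for each gene the transcript with the largest summed TPM is drawn. C86187 leaves the left panel's top after the 1-cell stage, AC158982.1, AC166350.2 and C430002N11Rik stand high at 1-cell, and B020004C17Rik and 1600025M17Rik stand high at 2-cell and 4-cell.

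The step from 1-cell to 2-cell embryo, in which the mouse embryo's own genome is activated, had the most calls among the transitions. Of 353 members tested 73 rose (20.7%) and 34 fell (9.63%), against 22.9% and 5.11% of all merged transcripts (28.0% in either direction). The median log2 change was 0.23 in the members, 0.75 over all transcripts and 0.67 over coding ones. The median of all transcripts moved by more than 0.1, and quantile normalization, which removes that shift, turned the split to 44 higher and 93 lower. The split also rested on the 2-cell libraries: without replicate 1 it was 109 higher and 20 lower, and without replicate 2 it was 55 higher and 90 lower. Without 1-cell replicate 1, 51 were called, and without 1-cell replicate 2, 54. For these settings and the like ones at later transitions, the split over all merged transcripts was not taken. The splits are thus not read as particular to the members. By type, 28 lincRNA transcripts rose and 20 fell, 19 antisense rose and 7 fell, and 20 processed transcripts rose and 6 fell.

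A longer span, from 1-cell to 4-cell, was therefore also taken, with both 2-cell libraries left out. It includes the 2-cell to 4-cell step, where the median change was -0.69 in the members and 0.01 over all transcripts. Of 345 members tested there, 110 rose (31.9%) and 128 fell (37.1%), against 41.6% and 18.4% of all merged transcripts and 39.3% and 16.2% of coding ones. The median log2 change was -0.34 in the members and 1.03 over all transcripts. Among lincRNA transcripts 87 of 175 fell and 42 rose (median -1.51), whereas 32 of 69 processed transcripts rose and 17 fell (median 1.31), and antisense transcripts had 31 higher and 21 lower of 87 (median 0.30). Of the 107 calls at 1-cell to 2-cell, 96 were called in this fit too; both share the 1-cell libraries.

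**Figure D4:**
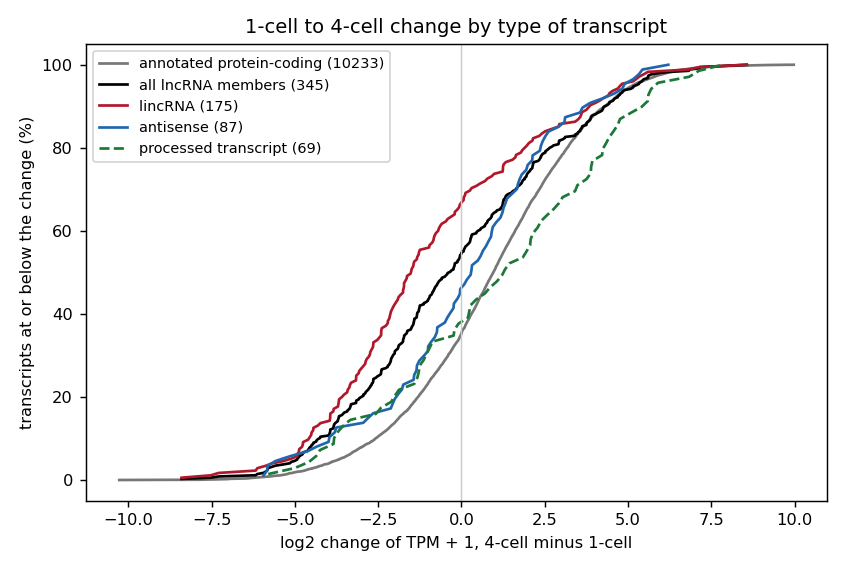
Cumulative share of transcripts (%) by their log2 change of TPM + 1, 4-cell minus 1-cell, in the fit without the 2-cell libraries; the number of transcripts of each type stands in the legend. The lincRNA curve lies to the left (median -1.51) and the protein-coding and processed transcript curves to the right of 0.

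B020004C17Rik and 1600025M17Rik led the lncRNAs that were highest around the 2-cell and 4-cell stages. B020004C17Rik (chr14:57015127-57017546, 4 exons) was at 0 in both oocyte libraries, 0.849 and 0.0716 TPM at 1-cell, 189 and 676 at 2-cell, 476 and 596 at 4-cell, 25.1 and 19.2 at 8-cell, and 5.61 and 0 in blastocyst. It rose by 7.99 ± 0.91 from 1-cell to 2-cell (adjusted p = 0.000491) and fell by 4.54 ± 0.91 on the log2 scale from 4-cell to 8-cell (adjusted p = 0.0175). Its intron chain was found in the long reads of 8-cell and blastocyst and not of the 2-cell and 4-cell pools. 1600025M17Rik (chrX:56317621-56320679) was at 18.0 and 90.4 TPM at 2-cell, 147 and 215 at 4-cell, and 4.71 and 6.65 at 8-cell. It fell by 4.76 ± 0.77 from 4-cell to 8-cell (adjusted p = 0.0062), and its chain was found in the 2-cell and 4-cell long reads. Platr30 and Platr27, named for a link to pluripotency, went opposite ways from 1-cell to 2-cell: Platr30 from 135 and 88.3 to 0.920 and 30.3 TPM (-3.83 ± 1.01, adjusted p = 0.0152), and Platr27 from 0 and 0.133 to 8.68 and 5.70 TPM (2.92 ± 0.77, adjusted p = 0.0152). Of the 6 transcripts in that list these were the 2 called at this step, and the 3 Platr14 transcripts and Platr5 were not.

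snoRNA host genes carry snoRNAs, guides for rRNA modification, in their introns. The list was made by name, from Gas5, Zfas1, Epb41l4aos and the Snhg genes, and held 18 member transcripts of 14 genes, with 9 annotated snoRNA genes within Gas5, 8 within Snhg1, 4 within Snhg12 and 3 within Zfas1. Snhg10 and Snhg20 hold a scaRNA and a microRNA but no gene typed snoRNA, and hosts with other names, such as 2410006H16Rik with 3 snoRNA genes, are not in the list. Their summed level was 93.6 and 47.8 TPM in oocyte, 108 and 40.5 at 1-cell, 695 and 1029 at 2-cell, 1631 and 1294 at 4-cell, 1688 and 1138 at 8-cell, 887 and 613 in blastocyst and 595 and 553 in sperm. Every library from the 2-cell stage on lay above every oocyte and 1-cell library. From 1-cell to 2-cell 11 of 18 rose and none fell, against 22.9% and 5.11% of all transcripts (median change 2.96, all transcripts 0.75). From 1-cell to 4-cell without the 2-cell libraries 16 of 18 rose and none fell, against 41.6% and 18.4% of all transcripts (median 4.69, all transcripts 1.03). The exceptions were Snhg10, at 21.8 and 11.5 TPM at 1-cell and 26.2 and 27.1 at 4-cell, and Snhg18, whose 4-cell libraries, at 2.92 and 2.57 TPM, lay below both 1-cell libraries.

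Single hosts had different time courses. Snhg20 went from 2.81 and 1.42 TPM at 1-cell to 257 and 71.0 at 2-cell (5.49 ± 0.85, adjusted p = 0.00112), and Snhg9 from 0 and 1.34 to 107 and 46.9 (5.55 ± 0.73, adjusted p = 0.000668). Snhg3 showed the largest rise of the list in its 437-base transcript, from 0 in both 1-cell libraries to 17.6 and 129 TPM at 2-cell (5.62 ± 1.32, adjusted p = 0.00844). Snhg15 went from 1.28 and 0.794 to 31.8 and 130 TPM (5.02 ± 0.76, adjusted p = 0.00105), and Zfas1 from 1.82 and 0 to 21.7 and 36.6 (4.12 ± 0.73, adjusted p = 0.00193). Snhg6 was higher later: 28.5 and 7.13 TPM at 1-cell, 21.8 and 129 at 2-cell, 366 and 243 at 4-cell and 472 and 354 at 8-cell, where it was among the 2 most abundant members. Its libraries overlapped between 1-cell and 2-cell (1.82 ± 0.92, adjusted p = 0.162). Gas5, with a RefSeq start window printed above, had 3 transcripts. That of 804 bases was at 0 in all 4 oocyte and 1-cell libraries. It reached 4.83 and 12.2 TPM at 2-cell and 64.2 and 53.8 at 4-cell. No host was called between 4-cell and 8-cell or between 8-cell and blastocyst, where the median changes were -0.40 and -0.85 (all transcripts -0.39 and -0.23).

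**Figure D5:**
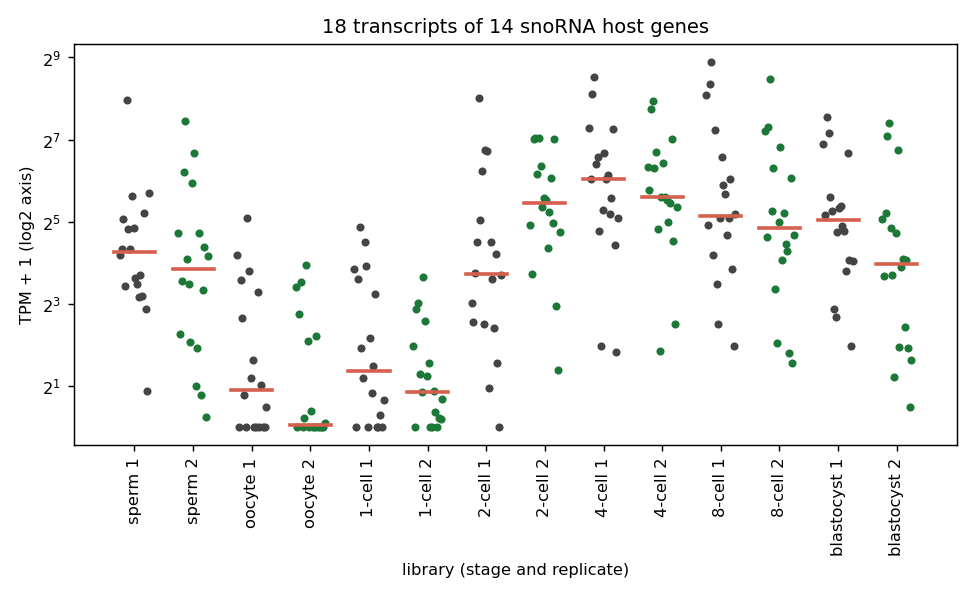
TPM + 1 on a log2 axis for 18 transcripts of 14 snoRNA host genes (dots) in each of 14 libraries (stage and replicate number), with their median as a bar. The median is at most 1.55 TPM in the oocyte and 1-cell libraries and at least 12.2 TPM in every other library.

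The list of microRNA hosts, made by name, held Mir22hg and Dleu2, with no call at any single transition from oocyte to blastocyst. Over the longer span from 1-cell taken above, without the 2-cell libraries, Dleu2 rose (2.08 ± 0.54, adjusted p = 0.00716, limma). Mir22hg was not called there (-0.21, adjusted p = 0.826). Annotated microRNAs also lie within Snhg20, Snhg10 and Meg3, described elsewhere, and none lies within the Dleu2 stretch. The Dleu2 transcript is a single exon and was higher in sperm (25.6 and 8.05 TPM) than in oocyte (listed at 0), with an adjusted p of 0.000967. Mir22hg holds miR-22 in an exon and was at 8.91 and 18.6 TPM in oocyte, 19.4 and 3.39 at 1-cell and 2.68 and 1.07 in blastocyst. Its mature miRNAs are printed with the seed (bases 2 to 8) in capitals, from RefSeq on GRCm38.p6, chr11:75463734-75463755 and chr11:75463772-75463793, plus strand.
mmu-miR-22-5p: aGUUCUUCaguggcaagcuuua
mmu-miR-22-3p: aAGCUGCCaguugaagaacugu

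Xist, Malat1, Dancr and Meg3 were low in oocyte and 1-cell embryo. The Xist transcript of 519 bases, a stretch of the X-silencing RNA (chrX:103482700-103483218), was at 0.185 and 0 TPM in oocyte, 0.337 and 0.212 at 1-cell, 1.00 and 33.2 at 2-cell, 75.1 and 49.1 at 4-cell, 115 and 66.7 at 8-cell and 126 and 11.4 in blastocyst. No single step passed, and the change from 1-cell to 4-cell did (5.60 ± 0.92, adjusted p = 0.000521). The Malat1 transcript, a stretch of 951 bases of this nuclear RNA, was at 2.75 and 2.58 TPM at 1-cell, 11.8 and 90.3 at 2-cell, 355 and 485 at 4-cell, 846 and 530 at 8-cell and 1697 and 139 in blastocyst. It led the 8-cell and blastocyst stages by mean TPM, but its blastocyst libraries differed widely. Dancr had 3 transcripts and each rose from 1-cell to 2-cell; that of 590 bases went from 1.06 and 0.327 to 132 and 28.5 TPM (5.25 ± 0.77, adjusted p = 0.000926). Neat1 and Tug1, found as single-exon stretches, had no call at any transition. In the list of nuclear and widely expressed lncRNAs 3 of 6 tested transcripts rose from 1-cell to 2-cell (22.9% of all transcripts), all of them of Dancr, and 5 of 6 from 1-cell to 4-cell without the 2-cell libraries (41.6% of all). Meg3, an imprinted lncRNA, had 3 transcripts, all at most 0.618 TPM in oocyte and 1-cell, and the one of 327 bases reached 1.76 and 5.96 TPM at 2-cell (2.13 ± 0.61, adjusted p = 0.0221). It was the only call of the 5 transcripts in the imprinted and X-linked list at that step.

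From 2-cell to 4-cell 1 member rose and 7 fell of 353 (0.283% and 1.98%), against 1.46% and 1.17% of all merged transcripts (2.63% in either direction). The members' median change was -0.69 and that of all transcripts 0.01. The 7 that fell were 3 C86187 transcripts, Gm1965, Gm839, Gm32635 and Gm16050, all of them at higher levels in oocyte or 1-cell than at 4-cell. The antisense transcript 1600010M07Rik rose from 1.32 and 3.11 to 43.8 and 45.7 TPM (3.89 ± 0.73, adjusted p = 0.0256). These calls rested on the libraries used: without 2-cell replicate 1, 2 rose and 87 fell; without 2-cell replicate 2, 27 rose and 25 fell; and without any single library of the 1-cell, 4-cell or 8-cell stage none was called.

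From 4-cell to 8-cell 2 members rose and 7 fell, against 0.681% and 2.44% of all merged transcripts (3.13% in either direction). Besides B020004C17Rik and 1600025M17Rik, the members that fell were Gm45752, Gm6507, Gm5, Gm13496 and Gm11961, each higher in the 2-cell and 4-cell libraries than in any oocyte or 1-cell library. Gm45752 was at 38.9 TPM in both 4-cell libraries and at 3.29 and 3.30 at 8-cell (-3.21 ± 0.68, adjusted p = 0.0227). Gm14005 rose from 0.335 and 0.134 to 11.8 and 6.93 TPM (3.04 ± 0.55, adjusted p = 0.0103), and A230098N10Rik from 0 in both libraries to 7.58 and 4.92 TPM (2.83 ± 0.58, adjusted p = 0.0196). With a spread of its own for each stage, 13 rose and 90 fell. None was called without any one of the 4-cell or 8-cell libraries, 5 were called without any one of the oocyte or 1-cell libraries, and without 2-cell replicate 1 or 2 the numbers called were 32 and 30.

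From 8-cell to blastocyst 1 member rose and 3 fell, against 0.830% and 1.28% of all merged transcripts (2.11% in either direction). Hoxd3os1 rose from 1.13 and 1.17 to 7.42 and 26.0 TPM (2.81 ± 0.58, adjusted p = 0.0277). A530040E14Rik fell from 40.4 and 45.4 to 4.36 and 0.410 TPM (-3.99 ± 0.82, adjusted p = 0.0277), Gm49064 from 47.9 and 32.2 to 4.25 and 0.342 (-3.92 ± 0.77, adjusted p = 0.0239) and Gm2694 from 24.6 and 33.4 to 2.24 and 1.62 (-3.35 ± 0.74, adjusted p = 0.0365). No call was made without any single 1-cell, 4-cell or 8-cell library or without blastocyst replicate 2, 7 were made without blastocyst replicate 1, and 15 without either 2-cell library. In all, 118 of the 353 were called at 1 or more transitions and 235 at none. The matching share of all merged transcripts was not computed. At the 1-cell to 2-cell step alone 28.0% of them were called. A member that was not called is not shown to be unchanged, since with 2 libraries a stage even a large change can miss the threshold.

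Sperm held the largest set of stage-restricted lncRNAs. Of 412 members that passed the filter over 14 libraries, 158 were higher in sperm than in oocyte (38.3%) and 97 lower (23.5%), against 29.3% and 16.5% of all merged transcripts (45.8% in either direction) and 31.2% and 16.8% of coding ones. The antisense type had 61 higher and 16 lower of 113, and the lincRNA type 57 higher and 70 lower of 206. Smkr-ps (chr6:29985301-29993781) was at 434 and 2708 TPM in sperm and at most 5.84 TPM in any other library (8.76 ± 0.95, adjusted p = 1.2e-05). Gm11837 (chr4:14930637-14953030), antisense to Necab1, was at 417 and 1807 TPM in sperm and at most 1.03 elsewhere (9.61 ± 0.73, adjusted p = 1.04e-06). Malat1 was at 2818 and 556 TPM in sperm and 5.27 and 1.11 in oocyte (8.43 ± 1.23, adjusted p = 0.000113). The largest falls were the C86187 transcripts and Gm1070. Sperm replicate 1 and 2 differed up to several-fold in these values, and without sperm replicate 1 the calls were 89 higher and 67 lower.

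The sperm result stands beside signs of other cells. The blood cell and epididymal lists given above were at most 386 and 2.93 TPM in every oocyte and embryo library. Malat1 and Neat1, which most somatic cells express, were highest in sperm replicate 1, the library with the higher values of both lists. Their part in the result was not tested. RIKEN clone symbols whose library prefix belongs mostly to testis cDNA made 53 of the 160 members highest in sperm (33.1%) and 11 of the other 276 (3.99%). Hoxd3os1, at 1194 and 134 TPM, and Gm12940, at 1436 and 84.2 TPM, were also much higher in sperm replicate 1 than in replicate 2, and Smkr-ps and Gm11837 were higher in replicate 2.

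Opposite-strand lncRNAs were read beside their coding partners. Of 142 members with an exon overlap or a coding start within 1000 bases on the opposite strand, 78 had a partner with an annotated merged transcript. The member and its partner had their highest mean in the same stage in 16 (20.5%). The share in unrelated pairs was not computed, so no link between partners is read from this. The member's mean was above its partner's in 32 of 78 in sperm and in 12 of 78 in blastocyst. The 5 most abundant members of this kind were Gm11837 (Necab1), Hoxd3os1 (Hoxd3), 0610009L18Rik (Actg1), Snhg6 (Mcmdc2) and 2810408I11Rik (Ccnyl1), and only Ccnyl1 among these partners had a merged transcript of an annotated chain. 2810408I11Rik was at 241 and 516 TPM in oocyte, 382 and 204 at 1-cell, 15.7 and 188 at 2-cell and 20.0 and 10.8 in blastocyst, while Ccnyl1 stayed between 8.70 and 31.2 TPM in all 14 libraries. Among the 25 transcripts named for a coding gene on the other strand, 20 were tested in the transitions; 6 rose and 4 fell from 1-cell to 2-cell, against 22.9% and 5.11% of all transcripts. Arhgap20os made up the largest fall, from 262 and 197 to 2.28 and 59.9 TPM in its 1445-base transcript (-4.01 ± 1.12, adjusted p = 0.0192). Rab10os rose from 1.03 and 1.96 to 68.8 and 88.1 TPM (5.01 ± 0.69, adjusted p = 0.000773). These 25 had 15 higher and 4 lower in sperm than in oocyte, against 29.3% and 16.5% of all transcripts.

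The long-read pools held most lncRNA transcripts before the 2-cell stage. Of the transcripts in each pool's own annotation, lncRNAs were 190 of 8521 in sperm (2.23%, Wilson 95% interval 1.94 to 2.57), 127 of 7034 in oocyte (1.81%, 1.52 to 2.14) and 198 of 7943 in 1-cell embryos (2.49%, 2.17 to 2.86). From the 2-cell stage they were 91 of 8019 (1.13%, 0.925 to 1.39), then 57 of 8257 (4-cell, 0.690%, 0.533 to 0.893), 67 of 8831 (8-cell, 0.759%, 0.598 to 0.962) and 77 of 8409 in blastocyst (0.916%, 0.733 to 1.14). Each stage had 1 pool, so the intervals cover counting error only and give no spread between pools. The intervals of sperm, oocyte and 1-cell lie above those of all later stages. Per the study, raw long reads (subreads) of sperm, oocyte and 1-cell were shorter on average than those of 2-cell to 8-cell embryos. Blastocyst subreads were shorter than those of 2-cell to 8-cell embryos too, although the blastocyst lncRNA share was low. The 1-cell and blastocyst pools were each sequenced in more than 1 run. lncRNA transcripts are shorter than coding ones, and the part of read length or runs in these shares was not tested. Of the 385 multi-exon members, 266 were found with their chain in 1 pool alone, 116 of them in sperm, 59 at 1-cell and 31 in oocyte, and 2 were found in 6 pools. The share over all multi-exon merged transcripts was not computed, so no stage restriction of lncRNAs is read from these counts.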

How the data were processed

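Short-read and long-read libraries of pooled mouse sperm, oocytes and embryos were used as deposited. Per the labels and the study's methods, the authors clustered long reads and aligned them to mm10 (GMAP in the methods, while the labels name GSNAP), merged the stages' annotations with Cufflinks tools, and quantified short reads of amplified cDNA against the merged transcripts with Salmon, its library type set to automatic. The deposited TPM values per library, with no counts, were analysed; the study's read totals per library were not used here. A second set of TPM values was not used. Replicate numbers were taken from sample titles, which for 8-cell are opposite to the file labels.

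Merged transcripts were compared with GENCODE vM21. Changes were tested with limma 3.58.1 (R 4.3.3) on log2(TPM + 1), TPM of at least 1 in 2 libraries, stage as the only term, trend on, over all transcripts, with Benjamini-Hochberg adjustment and a call at 0.05; folds on this scale understate changes of low transcripts. Oocyte to blastocyst formed a fit of 12 libraries and sperm against oocyte a fit of 14. The fit was tested on simulated data, where estimates were close to the truth but most changes, even large ones, were not called except the largest simulated; the share required to pass this test was set after its first result. The members and gene lists were chosen with earlier results of these data known. Named were list members, the 3 largest called rises and falls per comparison, the 2 highest members per stage and the 5 highest opposite-strand members; other named members of small call sets and of the 1-cell and 2-cell patterns were chosen after their values were seen. Alternatives were another pseudocount, filters, quantile normalization, fewer libraries, a replicate block, stage weights and each library left out; 1-cell to 4-cell without the 2-cell libraries was added after seeing the data.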

Additional observations from a re-analysis of the deposited data

How the results depend on the processing

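With 2 libraries a stage, the numbers called between neighbouring stages moved with the settings, while none of 2091 alternative values of the 106 named calls changed direction (1765 kept their call and 326 lost it). Each transition is named here by its later stage. With a pseudocount of 0.1, 1 member was called for the 1-cell transition, 4 for 4-cell and 2 for blastocyst. The members' median tau was then 0.575, and tau of coding transcripts was not computed at this setting. Quantile normalization gave 34 calls for 4-cell and 10 for blastocyst. A fit of only the 4 libraries compared gave 42 calls (2-cell), 0 (4-cell), 82 (8-cell) and 0 (blastocyst), and a spread for each stage gave 47, 0, 103 and 11. Leaving out both 2-cell libraries, chosen after seeing the data, gave 238 from 1-cell to 4-cell. Without members that overlap merged exons on the opposite strand, 4 were called for 4-cell. The causes were not tested.

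Without each library in turn, calls ranged from 0 to 12 (1-cell), 51 to 145 (2-cell), 0 to 89 (4-cell), 0 to 32 (8-cell), 0 to 15 (blastocyst) and 156 to 279 (sperm against oocyte). With a single replicate number left out of every stage, the median tau was 0.698 and 0.735, and the members highest in oocyte were 24 and 66, in 2-cell 28 and 135, and in blastocyst 8 and 27. Deviations of same-numbered libraries correlated between -0.486 and 0.413, over 0.1 in 3 of 15 stage pairs. This does not settle whether the replicate numbers pair the samples, and titles and file labels give opposite numbers for 8-cell. A fit with the replicate number as a block gave 96 calls for 2-cell, 5 for 4-cell, 5 for 8-cell and 1 for blastocyst, and it moved the other counts by less than 1.5 times.

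With exact multi-exon members only, the mean share of TPM was 0.974% in sperm, 0.517% in 4-cell and 0.310% in 8-cell embryos, and 41 lncRNAs remained in the 8-cell long-read pool. Without members that also lie within a gene of another type it was 1.31% in sperm and 0.605% in 4-cell. Without each library's most abundant member it was 1.14% in sperm, 0.639% in oocyte, 0.699% in 1-cell and 0.647% in 4-cell. The files hold no counts, so no counting interval is given for low transcripts.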
